A study of Mus musculus with 52 samples.

Results

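Hmgcs1, Idi1, Fdps, Sqle, Lss, Cyp51 and Insig1 are 7 genes of cholesterol synthesis, chosen by name from the 39144 genes listed in at least 1 of 8 mouse tissues. All 7 had a row in every tissue, among 20198 genes in liver to 34865 in testes. RNA of wild-type mice was compared with RNA of Tug1-/- mice, which lack most of the long noncoding RNA gene Tug1. Their deleted allele keeps the start of the gene and its promoter and carries lacZ downstream. The labels gave 4 wild-type, 4 Tug1-/- and 3 rescue testes, 3 wild-type and 2 Tug1-/- prostates, and 3 samples of each genotype for eyes, heart, liver, spleen and MEFs, which are fibroblasts cultured from littermate embryos and used at an early passage. The brain values came from an existing dataset that the study analysed again, its samples were not among those listed, and so their number and conditions are not given here.

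The samples of these groups were male, on a mixed background of C57BL/6J and 129S6, from the strain named Tug1_tm1.1Vlcg. Rescue mice were Tug1-/- and also carried tg(Tug1) and CAGs-rtTA3, so that doxycycline in the food switched on the Tug1 transgene. The labels named Neo and LacZ for the Tug1-/- and rescue testes and no Neo for the wild-type testes, whereas by the study's methods mice free of Neo founded the colony. Whether these testes carried Neo is not settled here, and the effect of a cassette and that of the lost Tug1 RNA cannot be told apart. The labels gave no ages for the mice whose organs were taken. In bulk RNA, fewer cells of a type and less RNA per cell cannot be told apart.

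The values are the authors' means of each group in TPM, a transcript abundance that is corrected for gene length and sequencing depth. Values of single samples were not used here, and the authors' own standard errors and tests were set aside. No spread between replicates is therefore given, no difference below was tested, and neighbours in an order of levels cannot be said to differ beyond their spread. A log2 ratio is that of the second mean over the first after 0.1 TPM was added to both. As a description, each ratio was set beside all genes with at least 1 TPM in either group, called ranked genes below, and a gene counted as past 1.5-fold where its ratio was at least that large. A percentile is the share of ranked genes with the same or a lower ratio.

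Cholesterol is built from acetyl-CoA through mevalonate, isoprenoids, squalene and lanosterol. The enzymes are switched on together by the transcription factor SREBP-2 when sterols in the endoplasmic reticulum run low. When sterols are plentiful, INSIG proteins hold SREBP and its escort SCAP in that membrane. Liver is a main site of this synthesis and turns cholesterol into bile acids, Leydig cells of the testis turn it into steroids, and the brain makes its own.

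Within this route Hmgcs1 (chr13:119690379-119708260, plus strand, mm10) encodes the cytosolic enzyme that makes HMG-CoA. Idi1 (chr13:8885501-8892451, plus strand) isomerises the activated isoprene unit and Fdps (chr3:89093588-89101959, minus strand) joins such units to farnesyl diphosphate. Sqle (chr15:59315077-59331192, plus strand) oxidises squalene, Lss (chr10:76531588-76557138, plus strand) closes the ring to lanosterol, and Cyp51 (chr5:4081145-4104746, minus strand) removes a methyl group of lanosterol. Insig1 (chr5:28071363-28078662, plus strand) is the feedback member and is itself a target of SREBP. Cyp51 overlapped Akap9 on the opposite strand, and Akap9 was listed at 6.09 TPM in wild-type heart to 33.0 TPM in wild-type eyes. Lss overlapped 4930483K19Rik on the opposite strand, which reached 11.7 TPM in wild-type testes, where Lss itself was at 8.56 TPM. Hmgcs1 and Idi1 also overlapped AC123738.2 and AC124732.1 on the opposite strand, and Fdps overlapped Gm22935 on the same strand. Whether reads were counted by strand was not stated, so reads from overlapping genes may not have been told apart. For Fdps and Gm22935 counting by strand would not separate them.

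Promoter windows of RefSeq (GRCm38.p6) were found for 5 of the 7 genes, and not for Sqle and Fdps. The windows of Hmgcs1, Lss, Cyp51 and Insig1 are shown because these genes are known as targets of SREBP and because their mean levels lay on the same side in several tissues. Only bases before both annotated gene starts are printed, and the Idi1 window overlaps an annotated transcript of the other strand and is not printed. Capitals mark the sterol response element TCACNCCAC and TCACNNCA, a loose form of it chosen after the windows were seen. Capitals also mark CCAAT or ATTGG, its complement, and CACGTG, the E-box.
Hmgcs1 (chr13:119690101-119690350, plus strand): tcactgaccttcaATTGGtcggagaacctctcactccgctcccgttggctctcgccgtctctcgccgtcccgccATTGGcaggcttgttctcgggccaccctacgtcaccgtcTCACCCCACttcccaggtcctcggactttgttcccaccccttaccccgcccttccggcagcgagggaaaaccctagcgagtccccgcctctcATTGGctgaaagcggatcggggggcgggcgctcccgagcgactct
Lss (chr10:76531355-76531587, plus strand): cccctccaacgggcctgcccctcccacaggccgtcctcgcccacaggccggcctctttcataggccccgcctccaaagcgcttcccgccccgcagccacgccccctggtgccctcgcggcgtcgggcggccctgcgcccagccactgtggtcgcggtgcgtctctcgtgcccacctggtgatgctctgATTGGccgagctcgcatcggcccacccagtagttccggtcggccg
Cyp51 (chr5:4104747-4104947, minus strand): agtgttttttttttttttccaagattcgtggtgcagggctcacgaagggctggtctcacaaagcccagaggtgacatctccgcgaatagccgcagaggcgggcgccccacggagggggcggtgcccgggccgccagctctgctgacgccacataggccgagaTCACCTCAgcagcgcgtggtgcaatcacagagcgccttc
Insig1 (chr5:28071162-28071362, plus strand): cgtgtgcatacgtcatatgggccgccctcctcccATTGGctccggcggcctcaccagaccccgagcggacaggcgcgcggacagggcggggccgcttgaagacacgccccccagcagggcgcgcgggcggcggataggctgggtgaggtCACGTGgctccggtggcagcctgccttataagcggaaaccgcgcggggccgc

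In the Hmgcs1 window, TCACCCCAC, which matches the stricter element TCACNCCAC, began 137 bases before the RefSeq start. This stricter element occurred on either strand in 1.24% of 32851 RefSeq windows of 300 bases and in 1 of the 5 member windows. The looser TCACNNCA, which the Hmgcs1 match also contains, occurred in 13.8% of windows, and among members also in Cyp51, as TCACCTCA at position -88. CCAAT on either strand occurred in 37.4% of windows and in 5 of 5 member windows, with 4 matches in Hmgcs1. The GC box GGGCGG occurred in 35.7% of windows and in 5 of 5 member windows. CACGTG occurred in 7.15% of windows and, among members, in Insig1 at position -101. These matches are letters in a window and not measured binding sites.

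Tug1 and the tissue markers were used to check the labels. Mean Tug1 in Tug1-/- samples was 0.0825% to 0.512% of wild type outside testes, and in testes it was 40.1 TPM in wild type, 0.885 TPM in Tug1-/- and 1.60 TPM in rescue. For each of the 8 tissues all 4 defining markers were present at 1 TPM or more. Presence alone is a weak check, as the 4 MEF markers also reached it in brain and spleen, and the 4 eye markers in testes. The summed wild-type level of each marker set was highest in its own tissue. Adipocyte markers, a list of 5 genes chosen after values were seen, differed between genotypes in several organs. Their summed mean level was 154 (wild type) and 718 TPM (Tug1-/-) in eyes, 91 (wild type) and 472 TPM (Tug1-/-) in prostate and 203 (wild type) and 110 TPM (Tug1-/-) in heart, and all 5 were past 1.5-fold in each of these. In testes they summed to 31.6 (wild type) and 40.4 TPM (Tug1-/-), and 3 of the 4 ranked ones were past 1.5-fold higher. These were Cfd, at 5.54 and 13.4 TPM, and Plin1 and Cidec, both near 1 TPM in wild type. Adipoq, the most abundant of the list there, was at 23.7 and 23.3 TPM. In spleen, the liver markers summed to 21.9 (wild type) and 0.670 TPM (Tug1-/-), and Spink1 was listed at 0 (wild type) and 68.8 TPM (Tug1-/-). In eyes the 4 heart markers summed to 266 (wild type) and 485 TPM (Tug1-/-), most of it Actc1, a gene of striated muscle. The part of these tissue differences in the member values was not tested.

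The wild-type levels of the 7 genes differed by tissue, and heart had the lowest mean for every one of them. Hmgcs1 was highest in brain, at 247 TPM, followed by MEF at 168, eyes at 142, liver at 114, testes at 44.9, spleen at 41.6, prostate at 28.5 and heart at 16.0 TPM. Idi1 ran from 27.6 TPM in MEF through 19.6 in testes, 15.3 in liver, 12.6 in brain, 10.2 in eyes, 6.31 in spleen and 2.31 in prostate to 0.691 TPM in heart. Fdps had a narrow upper range, with 17.1 TPM in liver, 14.4 in eyes, 14.1 in testes and 13.9 in MEF, then 9.37 in prostate, 8.27 in brain, 4.40 in spleen and 1.42 TPM in heart. The upstream steps therefore did not share their highest tissue.

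Sqle was at 75.7 TPM in MEF, 64.0 in testes, 52.4 in eyes, 50.1 in brain, 17.5 in prostate, 14.9 in liver, 13.0 in spleen and 0.841 TPM in heart, an 89.9-fold range. Lss ran from 27.7 TPM in eyes through 18.5 in MEF, 15.8 in brain, 12.2 in liver, 9.71 in prostate, 8.56 in testes and 6.09 in spleen to 0.909 TPM in heart. Cyp51 was at 158 TPM in MEF, 83.5 in brain, 76.9 in liver, 73.5 in testes, 63.3 in eyes, 33.2 in spleen, 23.8 in prostate and 7.03 TPM in heart. Among the enzymes, testes came in place 2 for Sqle and Idi1, 4 for Cyp51 and 6 for Lss, so the germline organ was not uniformly high or low. Insig1 had the order liver at 266 TPM, eyes at 136, brain at 95.8, MEF at 75.4, prostate at 43.3, spleen at 40.1, testes at 18.3 and heart at 14.1 TPM. Liver was thus highest for the feedback gene and in place 6 for Sqle.

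**Figure D1:**
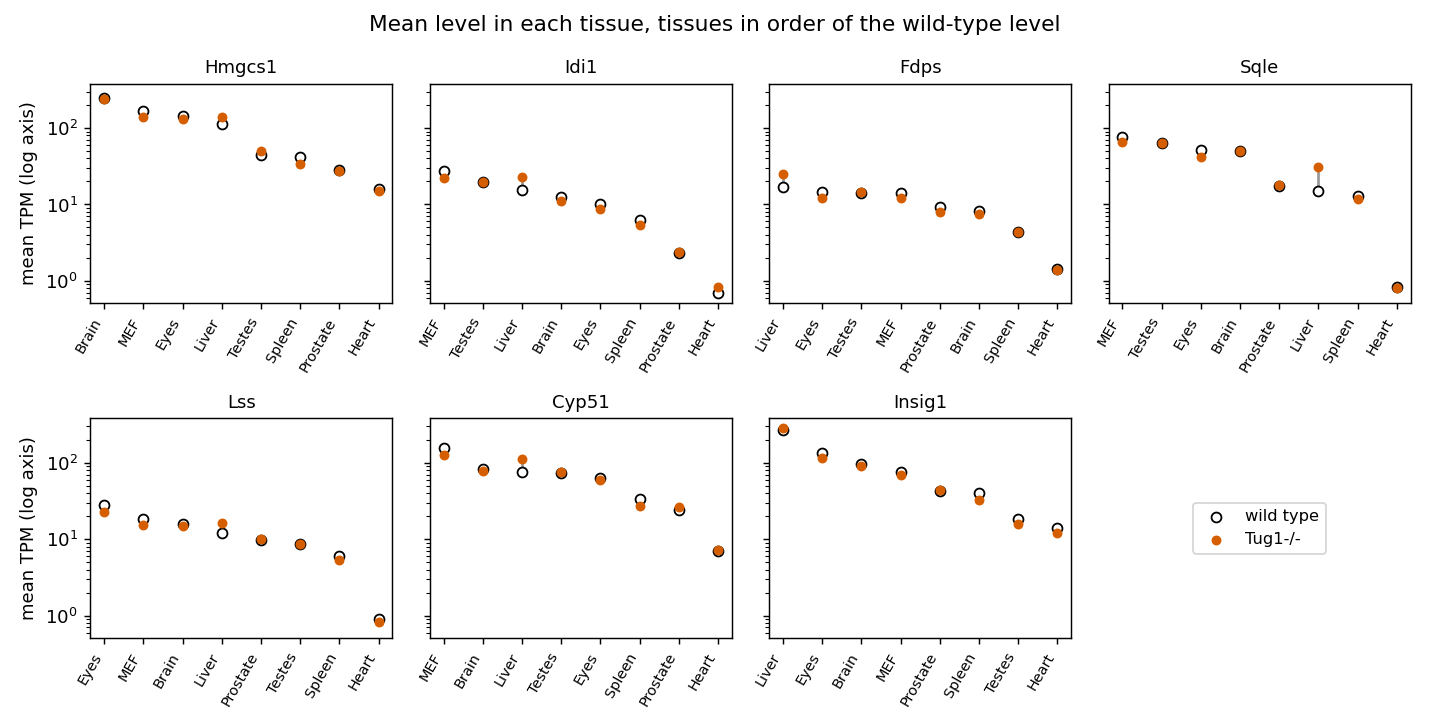
Mean TPM on a log axis of each of the 7 genes in wild-type (open circles) and Tug1-/- (filled circles) samples, with tissues ordered by the wild-type level and no error bars because the values used are group means. Heart is lowest for every gene, and the widest gap between the circles is that of Sqle in liver, 14.9 (wild type) and 30.6 TPM (Tug1-/-).

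In liver the mean of all 7 genes was higher in Tug1-/- than in wild type, with a median log2 ratio of 0.56 against 0.01 over 12121 ranked genes. A higher mean of any size was found for 52.7% of ranked genes. Sqle had the widest difference, 14.9 (wild type) and 30.6 TPM (Tug1-/-), a log2 ratio of 1.03 at percentile 99.0. It was the 1 member past 1.5-fold in the higher direction, which held for 3.37% of ranked genes, and 6.02% were past it in either direction. Idi1 stood at 15.3 and 22.7 TPM (log2 ratio 0.57), Fdps at 17.1 and 25.2 TPM (0.56) and Cyp51 at 76.9 and 113 TPM (0.56), all 3 just under 1.5-fold and at percentiles of 96.3 to 96.4. Lss was at 12.2 and 16.3 TPM (0.42) and Hmgcs1 at 114 and 140 TPM (0.29), in wild type and Tug1-/- respectively.

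Insig1 differed least in liver, at 266 (wild type) and 283 TPM (Tug1-/-), a log2 ratio of 0.09 at percentile 67.1. The feedback gene therefore lay below the 6 enzymes in the order of ratios. The mean normalised counts behind these liver values, averaged by the authors over both genotypes and not corrected for length, were between 1195 for Idi1 and 15155 for Insig1. The range between the highest and the lowest member ratio was 0.95 in liver, the widest of the 8 tissues. In MEF, with 0.19, the 7 genes lay much closer together.

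The other enzymes of the pathway, a list of 14 genes, were on the same side in liver. All 14 had a higher mean in Tug1-/-, with a median log2 ratio of 0.34. Mvd, which makes isopentenyl diphosphate, was at 10.9 (wild type) and 16.8 TPM (Tug1-/-, log2 ratio 0.62) and was among the 2 of 14 past 1.5-fold. Sc5d, a late desaturase of abundant level, had the lowest ratio, 335 and 366 TPM (0.13).

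Genes around the pathway did not all lie on that side in liver. Of the 6 genes of the SREBP machinery, 3 had a higher and 3 a lower mean and none was past 1.5-fold. Srebf2, which encodes SREBP-2, was at 22.2 and 25.2 TPM (0.18), whereas Srebf1 was at 209 (wild type) and 142 TPM (Tug1-/-, log2 ratio -0.56) and Insig2, the paralog of Insig1, was at 99.1 and 77.9 TPM (-0.35). Idi2, the paralog of Idi1, was not listed in liver. Of 7 uptake and transport genes, 4 were higher and 3 lower, and none was past 1.5-fold.

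Of the 4 bile acid genes in liver, Cyp7a1, the rate-limiting enzyme of that route, was past 1.5-fold higher, at 39.2 (wild type) and 83.3 TPM (Tug1-/-, log2 ratio 1.08). Cyp8b1, the sterol 12-alpha-hydroxylase, was past it in the lower direction, at 196 and 126 TPM (-0.64). All 5 efflux targets of the sterol sensor LXR had a higher liver mean, with a median log2 ratio of 0.16 and none past 1.5-fold. Of 7 fatty acid synthesis genes, 5 were higher and 2 lower, and Scd2 was past 1.5-fold, at 2.81 and 5.11 TPM (0.84). Cyp17a1, a steroidogenic enzyme also present in mouse liver, was at 6.75 and 34.2 TPM (2.32).

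Some other genes also differed in mean between the liver groups, and the part of either list below in the member values was not tested. Leukocyte and bile duct markers had a higher mean for 5 of 5 genes, with Ptprc at 1.03 and 1.59 TPM and Clec4f, a marker of Kupffer cells, at 90.8 and 105 TPM. Their summed level was 106 (wild type) and 126 TPM (Tug1-/-). Of 10 clock genes, 8 were ranked, 3 with a higher and 5 with a lower mean, and Ciart was past 1.5-fold at 8.09 and 13.2 TPM (0.70). Clock genes were also past 1.5-fold higher in Tug1-/- heart, namely Per2 (log2 ratio 1.22), Per1 (0.66) and Ciart (0.65), and in Tug1-/- prostate, namely Per2 (0.81) and Per1 (0.60), and the part of these in the member values of heart and prostate was not tested. Both lists were chosen after values were seen.

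In MEF all 7 genes had a lower mean in Tug1-/-, with a median log2 ratio of -0.27 against 0.05 over 14824 ranked genes. A lower mean was found for 40.4% of ranked genes, and none of the 7 was past 1.5-fold, which 7.73% of ranked genes were in either direction. Idi1 was at 27.6 (wild type) and 22.2 TPM (Tug1-/-, log2 ratio -0.31) and Cyp51 at 158 and 128 TPM (-0.31). Lss was at 18.5 and 15.3 TPM (-0.27), Hmgcs1 at 168 and 140 TPM (-0.27), Fdps at 13.9 and 12.1 TPM (-0.20) and Sqle at 75.7 and 66.3 TPM (-0.19). Insig1 again had the ratio closest to 0, at 75.4 and 69.3 TPM (-0.12), and the percentiles of the 7 genes ran from 9.95 to 22.0.

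The 14 other enzymes also all had a lower mean in MEF, with a median log2 ratio of -0.22 and a range of -0.36 for Msmo1 to -0.11 for Mvk. None was past 1.5-fold. Of the SREBP machinery 3 of 6 were higher and 3 of 6 lower there, with a range of -0.02 to 0.12. The 3 ranked LXR efflux targets were all lower, with a median of -0.22, as were the 3 ranked leukocyte and bile duct markers, with a median of -0.23 and Cd68, a macrophage marker, at 45.4 and 33.4 TPM (-0.44). The part of these markers in the member values was not tested. Fatty acid synthesis genes were higher in 4 of 7, and Cyp27a1, an enzyme of bile acid synthesis, was past 1.5-fold at 1.66 and 1.04 TPM (-0.62). The members in MEF were thus on the opposite side from liver in mean level, and the difference between the tissues was not tested.

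**Figure D2:**
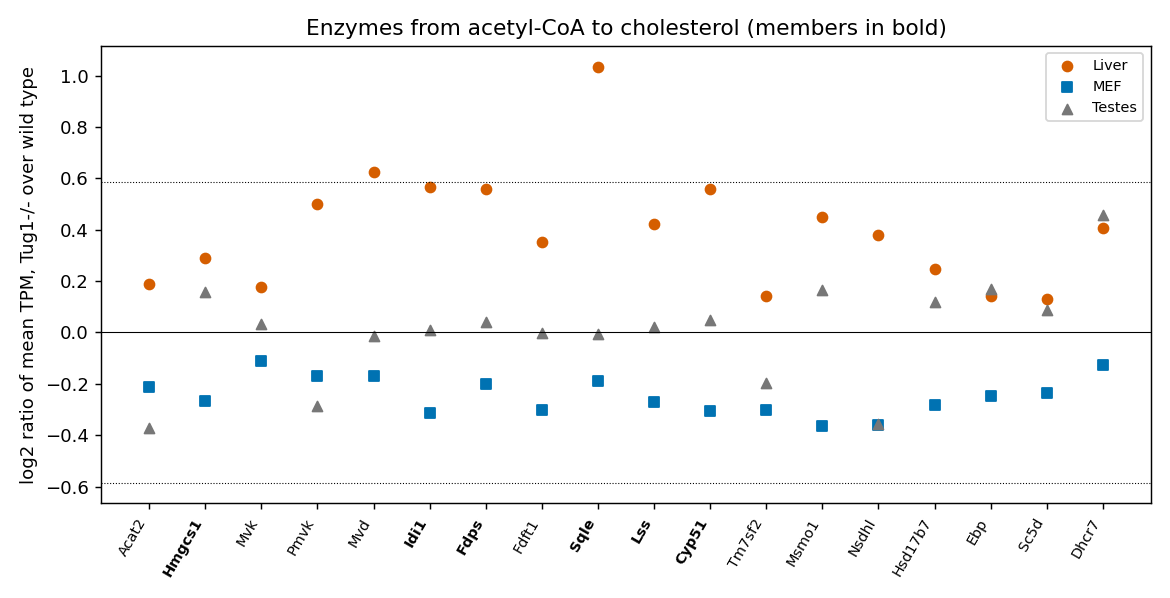
Log2 ratio of mean TPM, Tug1-/- over wild type, for 18 enzymes in the order of the pathway from acetyl-CoA to cholesterol, with the 6 member enzymes in bold, in liver (circles), MEF (squares) and testes (triangles); dotted lines mark 1.5-fold. Every circle lies above 0 and every square below 0, with Sqle (1.03) and Mvd (0.62) highest among those shown in liver, while the testes triangles fall on both sides.

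In eyes the median log2 ratio of all 19709 ranked genes was itself -0.11, so member ratios are also given relative to it. All 7 genes had a lower mean in Tug1-/-, as did 72.3% of ranked genes, with a median log2 ratio of -0.25, or -0.14 relative to the median of all. Sqle was at 52.4 (wild type) and 42.0 TPM (Tug1-/-, log2 ratio -0.32), Lss at 27.7 and 22.7 TPM (-0.28) and Fdps at 14.4 and 12.1 TPM (-0.25). Insig1 was at 136 and 114 TPM (-0.25), Idi1 at 10.2 and 8.70 TPM (-0.23) and Hmgcs1 at 142 and 130 TPM (-0.13). Cyp51, at 63.3 and 59.9 TPM (-0.08), changed side when the median of all genes was subtracted, to 0.03. No member was past 1.5-fold, against 7.87% of ranked genes.

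In spleen the median of 17260 ranked genes was -0.11 as well, and 70.2% had a lower mean in Tug1-/-. The 7 genes all had a lower mean, with a median log2 ratio of -0.21, or -0.10 relative to the median of all. Insig1 was at 40.1 (wild type) and 32.4 TPM (Tug1-/-, log2 ratio -0.31), Hmgcs1 at 41.6 and 34.0 TPM (-0.29) and Cyp51 at 33.2 and 27.4 TPM (-0.27). Idi1 was at 6.31 and 5.44 TPM (-0.21), Lss at 6.09 and 5.37 TPM (-0.18), Sqle at 13.0 and 11.8 TPM (-0.14) and Fdps at 4.40 and 4.30 TPM (-0.03), which turned to 0.08 relative to the median of all. No member was past 1.5-fold, while 10.5% of ranked genes were. Hsd17b7, which acts on a later sterol ketone, was the 1 other enzyme past it, at 7.78 and 5.01 TPM (-0.63).

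The members were close to the other genes in brain. Means were lower in Tug1-/- for 6 of 7 and for 60.3% of 17729 ranked genes, with a median log2 ratio of -0.09 against -0.03 over all. Idi1 was at 12.6 (wild type) and 11.3 TPM (Tug1-/-, log2 ratio -0.17) and Fdps at 8.27 and 7.40 TPM (-0.16), the widest differences there. Sqle was at 50.1 and 50.3 TPM. None was past 1.5-fold, against 6.14% of ranked genes, and the 14 other enzymes were evenly split, 7 higher and 7 lower.

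In heart Sqle, Idi1 and Lss were under 1 TPM in both genotypes and were not ranked, with mean normalised counts of 92.4, 54.3 and 188. Of the 4 ranked members 3 had a lower mean, against 25.2% of 14004 ranked genes, and none was past 1.5-fold, against 4.56%. Insig1 was at 14.1 (wild type) and 12.0 TPM (Tug1-/-, log2 ratio -0.23, percentile 6.96), Hmgcs1 at 16.0 and 15.0 TPM (-0.08), Fdps at 1.42 and 1.39 TPM (-0.03) and Cyp51 at 7.03 and 7.28 TPM (0.05). The median of all heart genes was 0.10, and relative to it all 4 ratios were below 0, with a median of -0.16. Of the 7 fatty acid synthesis genes in heart, 6 were lower and 1 higher. Scd1, Fasn and Elovl6 were past 1.5-fold lower, at -1.54, -0.69 and -0.69. Adipocyte markers were also lower in heart, as given above, and their part in these values was not tested.

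In prostate 5 of the 7 means were higher in Tug1-/- and 2 lower, against 58.8% of 15547 ranked genes with a higher mean. The median log2 ratio was 0.04, the same as that of all genes to 2 decimals, and relative to it Insig1 changed side. Fdps was lowest, at 9.37 (wild type) and 7.86 TPM (Tug1-/-, log2 ratio -0.25), and Cyp51 highest, at 23.8 and 26.5 TPM (0.15). Hmgcs1 was at 28.5 and 27.2 TPM, Sqle at 17.5 and 18.1 TPM, Lss at 9.71 and 10.1 TPM, Insig1 at 43.3 and 44.3 TPM, and Idi1 at 2.31 and 2.38 TPM. None was past 1.5-fold, against 7.99% of ranked genes.

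In testes the member enzymes had nearly the same mean in both genotypes. The median log2 ratio was 0.02 against 0.03 over 22378 ranked genes, and relative to that median it was -0.01, so it had no stable direction. Of the 7 genes 5 had a higher mean, as did 61.7% of ranked genes, and none was past 1.5-fold, against 6.26%. Hmgcs1 was at 44.9 (wild type) and 50.1 TPM (Tug1-/-, log2 ratio 0.16, percentile 80.9), and the other 5 enzymes lay between -0.01 and 0.05. Insig1 was at 18.3 and 15.6 TPM (-0.22, percentile 9.70).

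The rescue comparisons share samples with the former one and with each other, so their values are given side by side. Rescue mice differed from Tug1-/- mice in the added alleles, and only rescue mice are described by the study as fed doxycycline. The effects of the food, the alleles and the Tug1 transgene RNA cannot be told apart here. Hmgcs1 had means of 44.9, 50.1 and 43.2 TPM in wild type, Tug1-/- and rescue, and Cyp51 had 73.5, 76.1 and 70.7 TPM. Fdps had 14.1, 14.5 and 12.7 TPM, Lss 8.56, 8.68 and 7.87 TPM, Idi1 19.6, 19.8 and 19.0 TPM, and Sqle 64.0, 63.8 and 63.3 TPM. The rescue mean was the lowest of the 3 for all 7 genes, and for 31% of the 22669 genes with at least 1 TPM in any of the 3 groups. Insig1 was ordered from wild type through Tug1-/- to rescue, at 18.3, 15.6 and 12.4 TPM. Krt19, at 7.45, 3.40 and 0.567 TPM, and Epcam, at 59.8, 47.1 and 42.6 TPM, both from the leukocyte and bile duct list, had the same order. The other 3 genes of that marker list did not, with Cd68 at 5.79, 6.28 and 6.10 TPM and Ptprc and Clec4f under 1 TPM in each group. Some pathway enzymes had the order of Insig1 too, such as Acat2, at 18.4, 14.2 and 10.7 TPM, and Nsdhl, at 17.9, 14.0 and 10.5 TPM. Others did not, such as Mvk, at 8.31, 8.50 and 8.92 TPM. The share of all genes with this order was not computed. The part of Krt19 and Epcam in the Insig1 values was not tested.

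For rescue over Tug1-/-, 47.5% of 22180 ranked genes had a lower mean and 4.65% were past 1.5-fold, with no member among them. The median log2 ratio of the members was -0.14, and Insig1 (-0.33) and Hmgcs1 (-0.21) were lowest. For rescue over wild type, 40.1% of 22393 ranked genes were lower and 7.93% past 1.5-fold, again with no member. Insig1 came closest, at a log2 ratio of -0.56 and percentile 5.39. Subtracting the median of all genes (0.04) took it to -0.60, past 1.5-fold.

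**Figure D3:**
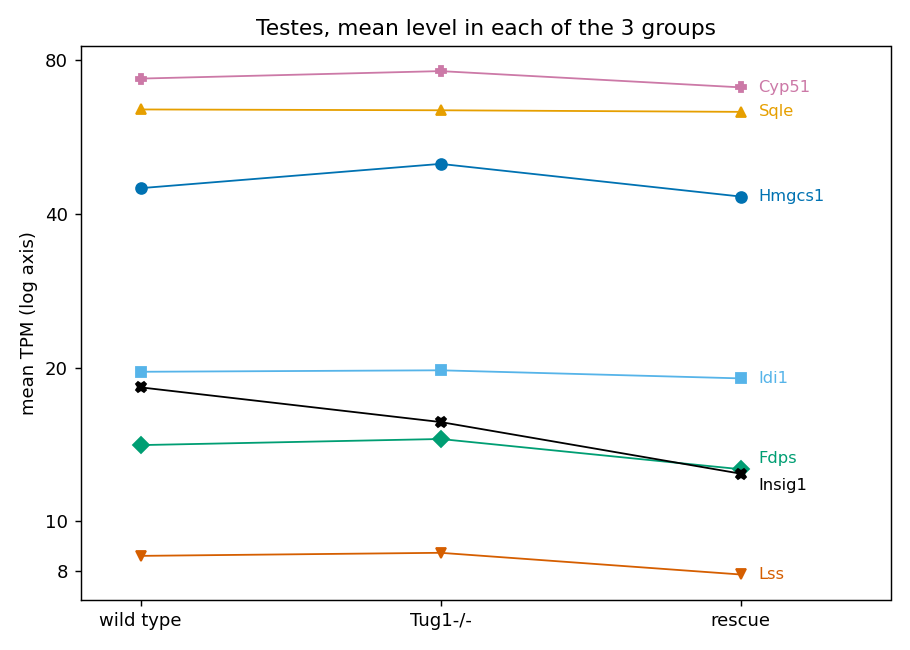
Mean TPM on a log axis of the 7 genes in wild-type, Tug1-/- and rescue testes, with lines joining the 3 means of a gene and no error bars because the values used are group means. Insig1 goes from 18.3 to 15.6 to 12.4 TPM, whereas Sqle stays between 63.3 and 64.0 TPM.

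Some other lipid genes of the testes lay further from 0 than the members. Of the 14 other enzymes 7 were higher and 7 lower in Tug1-/-, with Acat2 lowest at -0.37, Dhcr7 among the highest at 0.46 and none past 1.5-fold. For rescue over wild type Acat2 (-0.78) and Nsdhl (-0.77) were past it in the lower direction, and of all 14, 9 were lower. For rescue over Tug1-/- 12 of the 14 were lower, against 47.5% of ranked genes, with a median log2 ratio of -0.26 and none past 1.5-fold. All 6 steroidogenic genes, expressed by Leydig cells, had a higher mean in Tug1-/-. Star, which moves cholesterol into mitochondria, was at 41.5, 68.7 and 44.5 TPM in wild type, Tug1-/- and rescue, and Cyp11a1, which cleaves its side chain, at 43.2, 75.5 and 83.0 TPM. Both were past 1.5-fold higher in Tug1-/- than in wild type, Star was past it lower for rescue over Tug1-/-, and Cyp11a1 past it higher for rescue over wild type. Hsd3b6 was past 1.5-fold lower in rescue, at 136, 147 and 67.1 TPM.

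Npc2, a lysosomal cholesterol carrier, was past 1.5-fold lower in Tug1-/- testes, at 64.5, 32.6 and 27.9 TPM in the 3 groups, the 1 of 6 ranked uptake and transport genes to be so, in the same order as Krt19 and Epcam. Elovl6, a fatty acid elongase, was past it too, at 13.0, 6.50 and 4.91 TPM. Srebf1 was at 13.7, 9.69 and 8.42 TPM, past 1.5-fold lower for rescue over wild type, while Srebf2 was at 22.9, 22.1 and 21.4 TPM. Past 1.5-fold lower in rescue over wild type were also Scd1, Acly and Mylip, an LXR target, at -1.23, -0.67 and -1.06.

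**Figure D4:**
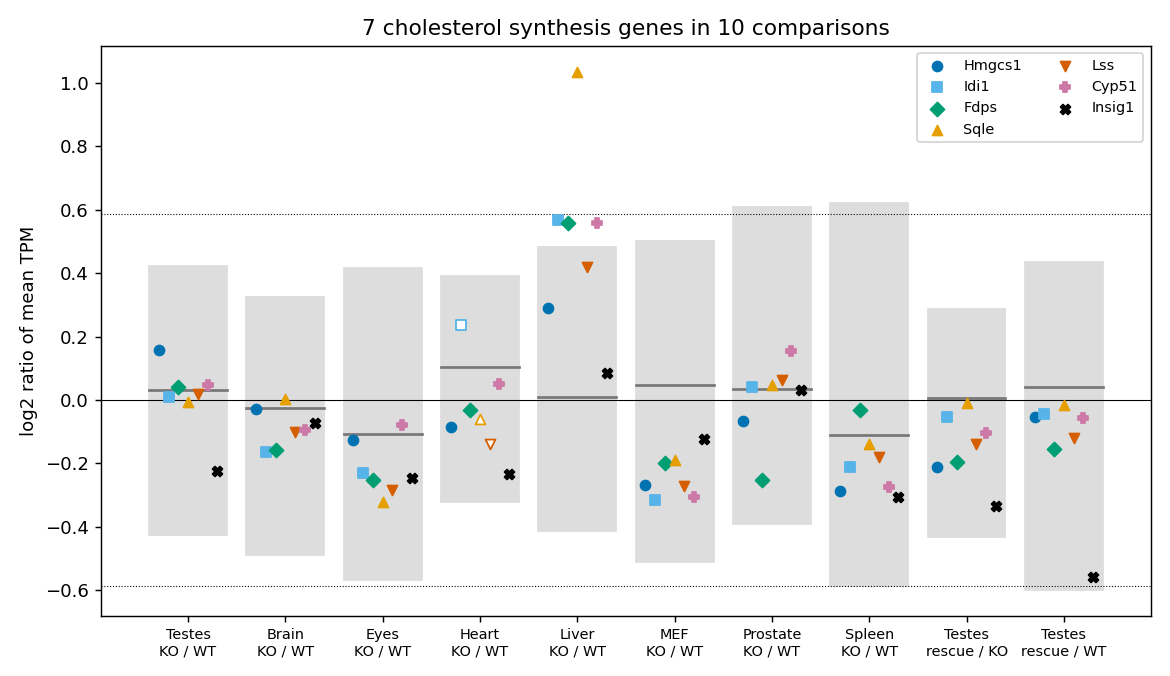
Log2 ratio of mean TPM of the 7 genes in the 10 comparisons (KO is Tug1-/-, WT wild type), with grey boxes spanning the 5th to 95th percentile of all ranked genes, grey lines their median, open symbols genes under 1 TPM, and dotted lines 1.5-fold. Liver holds the 4 member values above a grey box, Sqle (1.03), Idi1 (0.57), Fdps (0.56) and Cyp51 (0.56), while all MEF values lie between -0.31 and -0.12.

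Elsewhere the pathway lists gave a few further genes past 1.5-fold. Scd1 was higher in Tug1-/- eyes (133 and 216 TPM) and Elovl6 in Tug1-/- prostate (2.80 and 4.89 TPM). Of the 7 fatty acid synthesis genes, 4 were higher and 3 lower in eyes, and 6 higher and 1 lower in prostate. Adipocyte markers were also higher in both organs, and their part in these values was not tested. Abcg1, a sterol efflux pump, was higher in prostate at 1.03 and 1.76 TPM, and Cyp11a1 lower in spleen at 1.42 and 0.827 TPM. For rescue over Tug1-/- in testes Scd1 was lower, at 20.3 and 8.97 TPM. No gene of the SREBP machinery was past 1.5-fold in any of the 8 comparisons of Tug1-/- with wild type.

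How alike the members were across tissues was described with the log2 ratio, Tug1-/- over wild type, of each gene against the mean of the other 6 over 8 tissues. No minimum level was set for members here or for their mean below, so the heart point includes Sqle, Idi1 and Lss under 1 TPM. Pearson's r was 0.96 for Lss, 0.95 for Sqle, 0.93 for Cyp51, 0.90 for Idi1, 0.85 for Hmgcs1, 0.84 for Fdps and 0.65 for Insig1. Without liver it was 0.88 for Lss, 0.81 for Cyp51, 0.80 for Sqle, 0.72 for Idi1, 0.72 for Hmgcs1, 0.24 for Insig1 and 0.19 for Fdps. Members in 1 tissue share their libraries and so are not independent points. Insig1 and Fdps were the least like the others, and their r dropped most without liver.

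Among 9770 other genes with at least 1 TPM in every tissue, the 10 whose ratio over the 8 tissues was most like the members' mean included Rnf145, Mvd, Nck2, Arl4d, Phf8, Rcan1, Dcun1d3 and Cbfb, the 8 given here. Their r ran from 0.978 for Rnf145, a ubiquitin ligase, to 0.955 for Cbfb, and Mvd is itself a pathway enzyme. In liver these 8 genes had log2 ratios of 0.39 for Nck2 to 0.80 for Arl4d. Without liver none of the 10 was among the 10 most alike, and the r of the 8 genes ran from 0.743 for Cbfb to 0.938 for Nck2. Without brain 8 of the 10 were among the 10 most alike.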

How the data were processed

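Poly(A) RNA was made into TruSeq v2 libraries and sequenced, and base calls were made with CASAVA 1.8.2 per the submitters' processing notes. The authors used STAR to align reads to GRCm38 (mm10) and featureCounts to assign those that mapped uniquely to genes of the GENCODE annotation, and they removed genes with fewer reads than their minimum in every replicate. Unique counting would under-count a gene with a near-identical copy elsewhere, and copies were not searched for. The deposited TPM values are the authors' means over the samples of a group, and the deposited mean normalised count is a signal averaged by the authors over both genotypes of a tissue, not given for testes. The tables also hold the authors' own comparisons (log2 fold changes, standard errors, test statistics, p-values and calls), which were not used here. The columns used hold means and no values of single samples, so no test, SD or interval was computed, and the depth per sample is unknown. The mean normalised counts of all genes summed to between 17573743 in brain and 48341823 in eyes.

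With Python 3.11.15, pandas 2.3.3 and numpy 2.4.6, log2 ratios of mean TPM were computed after adding 0.1 TPM to both means, over 10 comparisons, for genes with at least 1 TPM in either group. Pearson's r used all 7 members in every tissue without that minimum. The steps were tested on simulated data. Genes named are the 7 members, genes of the pathway lists past 1.5-fold, paralogs, Tug1 and the 10 genes with the highest Pearson r to the mean of the members over 8 tissues, in addition to examples from the lists. The 7 lists around the members (other enzymes, SREBP machinery, uptake and transport, LXR targets, fatty acid synthesis, steroidogenesis, bile acids), the paralogs and the 8 sets of tissue markers were fixed together with the members, while 3 lists (adipocyte, clock, leukocyte and bile duct) were added later. The members and all lists were chosen with earlier results of these data known. Alternatives were a pseudocount of 1 TPM, a fold of 2 and a lower one of 0.32 on the log2 scale, no minimum, a minimum of 10 TPM for the background, centring on the median of all ranked genes, and leaving out brain or liver. Testes of 6 F1 hybrid mice were not analysed here, and some genes that the naming rule covers are not reported here, though they stay in the counts and medians of their lists.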

Additional observations from a re-analysis of the deposited data

How the results depend on the processing

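No paired analysis was possible because the values at hand are group means and not those of single samples, and for the same reason no replicate could be left out. Centred on the median of all ranked genes, the median log2 ratio of the members became -0.14 in eyes, -0.16 in heart and -0.10 in spleen, since that setting subtracts the median of the tissue, and it passed from 0.02 to -0.01 in testes. Under it 6 single member ratios, all within 0.08 of 0, also changed side: Cyp51 in eyes and heart, Fdps in spleen, Idi1 and Lss in testes and Insig1 in prostate. Insig1 for rescue over wild type in testes then became the 1 member past 1.5-fold there. With a lower fold, 0.32 on the log2 scale, 5 members were past it in liver, as a lower limit admits more genes. The count was 1 for rescue over Tug1-/- and 1 for rescue over wild type. The share of all ranked genes past this lower fold, or past 1.5-fold after centring, was not computed. Whether these counts are unusual can therefore not be said. A fold of 2, a pseudocount of 1 TPM and no minimum level left every count of members past the fold as it was, and neither of the latter 2 settings moved a median by as much as 0.1. The pseudocount of 1 TPM brought Idi1 in heart, which is under 1 TPM, from 0.24 to 0.12. With at least 10 TPM in either group, the share of genes past 1.5-fold was 5.94% in spleen, 3.57% in liver, 3.43% in eyes, 2.74% in prostate, 2.57% in testes, 2.32% in MEF, 1.68% in heart, 0.765% in brain, 3.06% for rescue over wild type and 1.0% for rescue over Tug1-/-, each more than 1.5 times below the share with at least 1 TPM. Of the 10 genes most like the members, 0 were among the first 10 without liver, a setting added after the data were seen, and 8 were without brain. Depth of single samples is unknown, so precision cannot be stated, and members under 1 TPM in heart are the least certain.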
